A study of Rattus norvegicus with 125 samples.

Results

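The lungs of adult male Sprague-Dawley rats were compared at 24 h and at 3 h after inhalation of phosphine (PH3), a fumigant gas. Arrays were taken for the comparison by their titles, which gave 4 arrays of PH3 lung at 24 h (rats 70, 87, 149 and 155) and 4 of PH3 lung at 3 h (rats 147, 148, 152 and 154), 8 of the 21 lung arrays and of the 125 arrays in the series. The PH3 rats had breathed 387 ppm for 40 min with the whole body exposed, a product of 15480 ppm x min. The controls, called Air here, had 0 ppm for 40 min, and their lungs gave 4 arrays at 24 h (rats 83, 84, 145 and 151) and 2 at 3 h (rats 144 and 150). All animals were of 1 strain, sex and age class, the labels name no genetic change, and no rat gave more than 1 lung array. Lungs at 1 week (3 PH3 and 4 Air arrays) are given as levels only. The labels state a light and dark cycle but not the clock hour of exposure or death. The time after exposure and the hour of day therefore cannot be told apart within the PH3 groups. The Air arrays at the same times are the only guide to the hour. They measure it only if those rats were killed at the same hours, which the labels do not state. Whole frozen lung was powdered, so a lower signal can mean fewer cells of a type or less RNA per cell, and these cannot be told apart.

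Phosphine blocks mitochondrial respiration and acts as a general metabolic poison. Acute stress raises adrenal glucocorticoids, and these hormones enter lung cells, bind the glucocorticoid receptor and switch on targets such as Fkbp5, Tsc22d3 and the metallothioneins. Lung tissue is a mixture of gas-exchanging alveolar type 1 cells, surfactant-making type 2 cells, endothelium, fibroblasts, airway cells and macrophages, and many of its genes also follow the daily clock. Values below are log2 signals of a gene's probe set after RMA normalization. Changes are differences of these log2 values, 24 h minus 3 h, with the standard error (SE) of the limma fit over the 21 lung arrays, and a gene was called at a Benjamini-Hochberg adjusted p below 0.05. Arrays are listed in the order of the rat numbers given above.

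Several lungs carried transcripts of neighbouring tissues. The mean log2 signal of 26 skeletal muscle genes was 6.76 in 24 h rat 155 and between 4.60 and 5.04 in the other 24 h rats, against 6.89 and 6.80 in 3 h rats 147 and 148 and 5.24 and 4.78 in 3 h rats 152 and 154. Air lungs lay between 4.65 and 4.91. The mean of 11 adipocyte genes was 8.80 in 24 h rat 70 and between 5.32 and 5.37 in the other 24 h rats, against 7.20 to 7.91 in the 3 h rats and 5.83 to 7.44 in Air lungs. Thus rat 70 carried more fat transcripts than any 3 h rat, and rats 87, 149 and 155 carried fewer than any 3 h rat. Cardiac muscle genes (14 measured) were highest in 3 h rat 147, at 8.97, against 6.43 to 7.82 at 24 h and 7.07 to 7.48 in the other 3 h rats. Hepatocyte genes stood out in Air 3 h rat 144 (7.03) and PH3 3 h rat 148 (6.17), and lay between 4.92 and 5.66 on the other lung arrays at these 2 times. The defining lung transcripts were high on all 8 arrays: Sftpc, the surfactant protein of type 2 cells, lay between 13.79 and 13.97 at 24 h and between 13.86 and 13.92 at 3 h. Array quality was alike, with within-group correlations of 0.984 to 0.988 at 24 h and 0.987 to 0.989 at 3 h, and 3'-to-5' log2 differences of beta-actin of 2.26 to 3.59 and of 2.81 to 3.19.

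**Figure D1:**
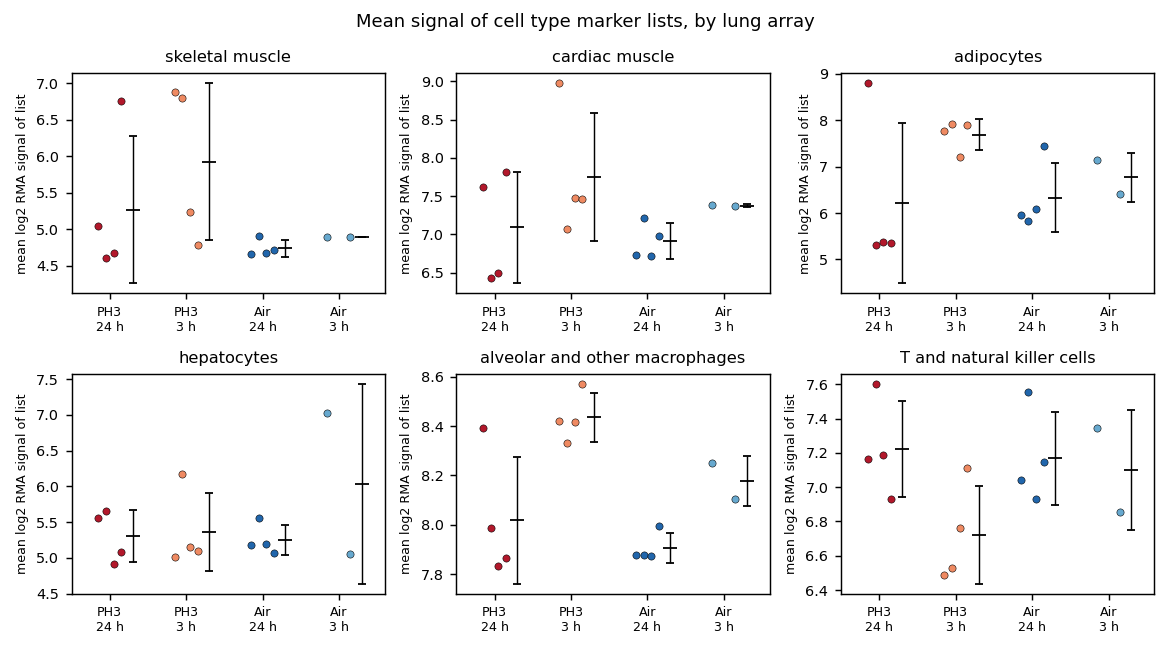
Mean log2 RMA signal of 6 cell type marker lists on each lung array (points) with the mean and SD of the group (bars), in PH3 24 h, PH3 3 h, Air 24 h and Air 3 h lung. Skeletal muscle genes were high in rat 155 at 24 h and in rats 147 and 148 at 3 h, adipocyte genes were high in rat 70 at 24 h and in the 3 h rats, and hepatocyte genes were highest in Air 3 h rat 144.

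At 24 h the PH3 lung had lower signals than at 3 h for Mt2A, a metallothionein, Fkbp5, a brake on the glucocorticoid receptor, and Cd163, a macrophage scavenger receptor. It had higher signals for G0s2, an inhibitor of fat breakdown, Tmem119, a membrane protein, and Hsd11b2, an enzyme that inactivates corticosterone. In limma, 203 of 19068 probe sets were called, 1.06% of those tested, which stood for 170 of 13438 genes, or 1.27%. Of these genes 97 were higher at 24 h, 0.722% of those tested, and 73 were lower, 0.543%. With each array centred on its median the split was 76 higher and 93 lower. The change passed 2-fold in 75 of the 170. At an unadjusted p under 0.05 there were 1743 genes, 13% of those tested, the share against which the unadjusted counts of the lists below are to be read. The 4 arrays of 24 h and the 4 of 3 h did not overlap for 1737 genes, 12.9% of those tested, and 167 of the 170 called genes were among them. The called genes ran from -2.56 (Mt2A) to 2.32 (G0s2), with a median of 0.93 among the higher ones and -1.0 among the lower ones, while the median over all genes was 0.049. Without rats 147, 148 and 155, the 3 with muscle transcripts, 1 gene was called higher and 7 lower (G0s2; and Atp1b1, Gal, Fkbp5, Wnk2, Nupr1, Sult1a1 and Asb11). All 170 genes kept their direction in that fit, which for the 167 without overlap was fixed, as leaving out arrays could not reverse it. Their median change was 0.841 times the one over all arrays, and the change moved by over 1.5-fold for 4 of them (Mt2A, Il1r2, Trim54 and Ooep). Of the 54 called genes described below, 7 were still called without those 3 lungs and 21 without rats 70 and 87. The numbers of these 2 rats lie far below those of the other PH3 rats compared. With the skeletal muscle mean as a covariate 43 were still called, and with the adipocyte mean as a covariate 34. Over the 170 called genes the median change was 0.964 times the main one with the muscle covariate and 0.996 times with the adipocyte covariate. With either covariate 0 of them moved by over 1.5-fold. Why calls were lost was not tested. Which genes passed also rested on single lungs: 49 of the 170 were called whichever of the 8 arrays was left out, and without rat 87, the largest loss, 27 were called higher and 34 lower.

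**Figure D2:**
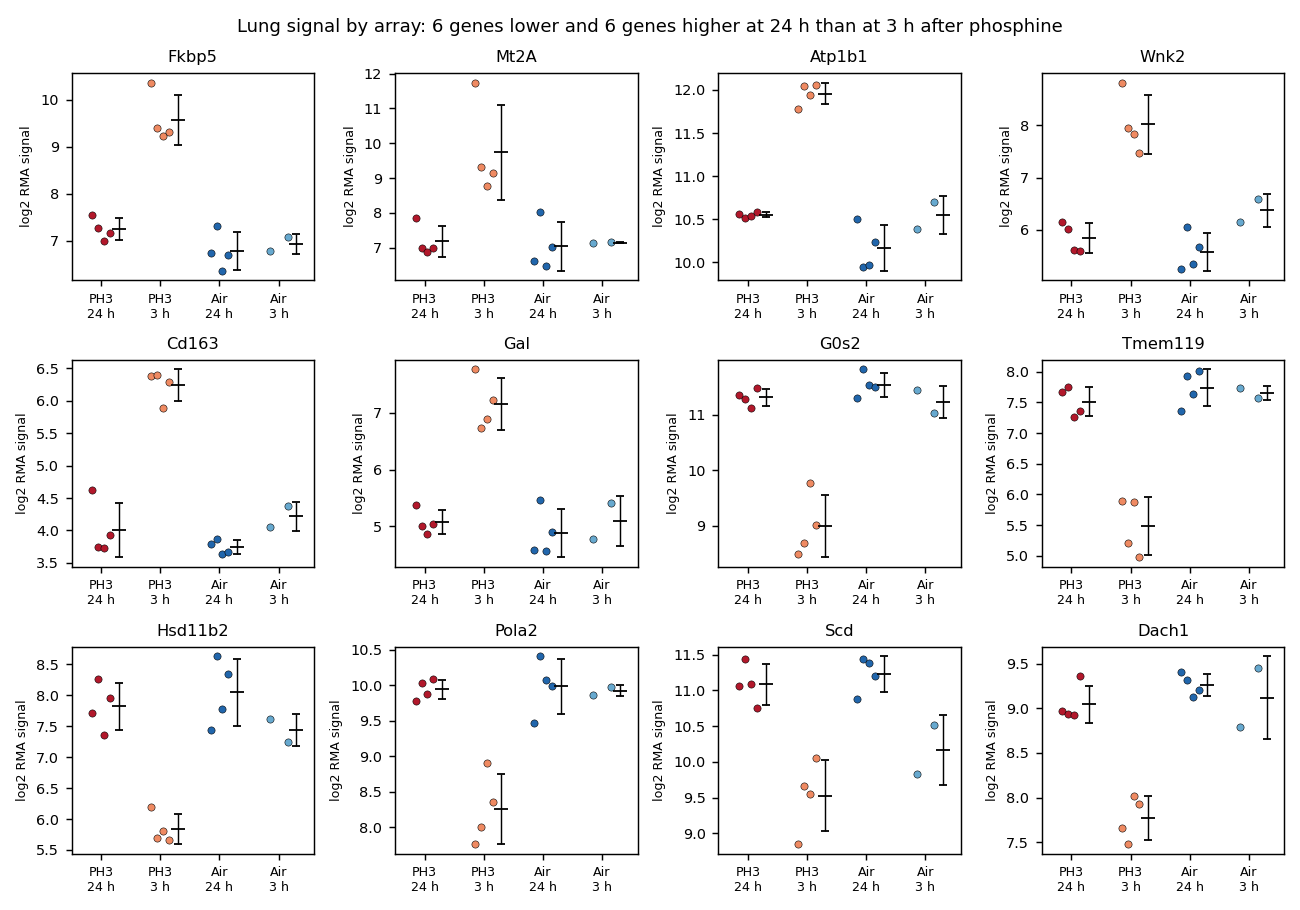
Log2 RMA signal of 12 called genes on each lung array (points), with the mean and SD of the group (bars), in PH3 24 h, PH3 3 h, Air 24 h and Air 3 h lung. In the first 6 panels the 3 h PH3 arrays lie above the 24 h PH3 arrays, in the last 6 below them, and in all 12 the 24 h PH3 mean lies nearer to the Air 24 h mean than the 3 h PH3 mean does. The 12 genes were picked from those called for the PH3 difference, which favours such an order, so it is not separate evidence.

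Among the 38 gene lists, glucocorticoid targets held the most called genes. Of 25 measured, 0 rose and 5 fell (Mt2A, Fkbp5, Sult1a1, Glul and Tsc22d3), and 23 of the 25 changes were negative, with a median of -0.64 in PH3 lung and of -0.072 in Air lung. Fkbp5, a co-chaperone that lowers the hormone affinity of the glucocorticoid receptor, had signals of 7.55, 7.26, 7.0 and 7.17 at 24 h, against 10.37, 9.41, 9.23 and 9.31 at 3 h. The 2 sets of arrays lay far apart, with 3 h rat 147 the highest, and the gene was 5.04-fold lower at 24 h (log2 -2.33, SE 0.29, limma adjusted p = 0.000279; -2.0 without the 3 muscle-bearing lungs). Air lung held 6.73, 7.32, 6.36 and 6.69 at 24 h and 6.78 and 7.07 at 3 h, close to PH3 lung at 24 h. Tsc22d3, which encodes the anti-inflammatory protein GILZ, had 11.87, 11.34, 11.70 and 11.36 at 24 h, against 12.61, 12.57, 12.29 and 12.38 at 3 h, without overlap (log2 -0.90, limma adjusted p = 0.0429). Its call was lost when any 1 array other than that of rat 70 was left out, at values between -0.96 and -0.82. Glul, glutamine synthetase, fell to 9.97 ± 0.20 at 24 h, against 11.03 ± 0.20 at 3 h (SD, n = 4 each; limma adjusted p = 0.0101), and was just outside the threshold without rat 147 (log2 -0.98, limma adjusted p = 0.0508). Its further probe sets gave -0.61 and -0.69 and were not called. Sult1a1, a phenol sulfotransferase, fell to 9.83 ± 0.31 at 24 h, against 10.94 ± 0.30 at 3 h (limma adjusted p = 0.00181). Pdk4, a kinase that closes entry of pyruvate into mitochondria, had 9.73, 6.07, 7.46 and 7.07 at 24 h, against 10.74, 10.04, 9.03 and 9.30 at 3 h. Only rat 70, whose lung carried the fat transcripts, reached the 3 h range, and Pdk4 did not pass the test (log2 -2.19, SE 0.56, limma adjusted p = 0.065). Errfi1, a feedback inhibitor of the epidermal growth factor receptor, had no overlap between 10.17, 9.86, 10.41 and 10.14 at 24 h and 11.31, 10.71, 10.61 and 10.50 at 3 h but also missed the threshold (log2 -0.64, limma adjusted p = 0.0912).

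Mt2A, a metallothionein that binds zinc and other metals, had the largest fall of all called genes. Its signals were 7.85, 7.0, 6.87 and 7.0 at 24 h, against 11.74, 9.31, 8.76 and 9.14 at 3 h. The groups did not overlap, but 1 lung of each stood apart, rat 70 above the others at 24 h and rat 147 far above the others at 3 h. It was 5.89-fold lower at 24 h (log2 -2.56, SE 0.50, limma adjusted p = 0.0121), and -1.89 without rat 147. The call was lost without the 3 muscle-bearing lungs (-1.71, limma adjusted p = 0.397), with the adipocyte covariate (-2.12, limma adjusted p = 0.0831), without rats 70 and 87 (-2.80, limma adjusted p = 0.0895) and without rat 87 alone (-2.50, limma adjusted p = 0.0532). Mt1, its neighbour on chromosome 19, has a probe set near the low end of the scale, at 3.50, 3.80, 3.61 and 3.66 at 24 h, against 5.22, 4.17, 3.97 and 3.79 at 3 h. The 2 groups overlapped and Mt1 was not called (log2 -0.64, SE 0.23, limma adjusted p = 0.237). Among the 10 metallothionein and zinc transport genes measured, 8 changes were negative and Mt2A alone was called. Metallothionein genes are switched on through metal response elements bound by MTF1, and the 250 bases before the start of each of the 2 genes are shown because they are the textbook promoters of that kind. They are from RefSeq (GRCr8), both on the minus strand, with every match to the element's core letters TGCACNC or TGCGCNC on either strand in capitals.
Mt2A (chr19:10838709-10838958): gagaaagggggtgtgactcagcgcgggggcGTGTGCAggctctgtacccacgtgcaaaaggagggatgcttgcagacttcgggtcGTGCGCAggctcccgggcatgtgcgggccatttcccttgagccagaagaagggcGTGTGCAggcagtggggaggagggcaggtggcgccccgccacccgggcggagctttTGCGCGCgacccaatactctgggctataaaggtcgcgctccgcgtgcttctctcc
Mt1 (chr19:10832976-10833225): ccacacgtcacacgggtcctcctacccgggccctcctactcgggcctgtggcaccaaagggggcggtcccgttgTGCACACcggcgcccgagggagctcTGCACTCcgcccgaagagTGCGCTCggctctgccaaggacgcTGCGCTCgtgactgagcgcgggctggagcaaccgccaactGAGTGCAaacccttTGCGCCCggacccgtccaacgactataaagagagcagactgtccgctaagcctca
Mt2A has 4 matches and Mt1 has 6. At least 1 match was found before 22.5% of the 27457 genes with such a sequence, at least 4 before 0.299% and at least 6 before 0.0255%. The letters were chosen after the values had been seen, and a match is a description of the sequence only.

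Genes of sodium and steroid handling changed in both directions. They were grouped after their values were seen, and Nedd4l and Nr3c2 were picked for the text in the same way. Atp1b1 encodes the beta subunit of the sodium pump, which drives clearance of fluid from the air spaces. It had 10.57, 10.52, 10.54 and 10.59 at 24 h, against 11.78, 12.04, 11.95 and 12.06 at 3 h, and the arrays of each time lay close together with a wide gap between the times. It was 2.65-fold lower at 24 h (log2 -1.41, SE 0.12, limma adjusted p = 7.15e-06), -1.46 without the muscle-bearing lungs, and its other probe set gave -1.36. Wnk2, a kinase of the family that sets ion cotransport, had 6.16, 6.02, 5.61 and 5.59 at 24 h, against 8.81, 7.94, 7.83 and 7.46 at 3 h, again without overlap (log2 -2.17, SE 0.27, limma adjusted p = 0.000279). Nedd4l, the ubiquitin ligase that removes the epithelial sodium channel from the membrane, fell to 8.96 ± 0.045 at 24 h, against 9.78 ± 0.083 at 3 h (SD, n = 4 each; limma adjusted p = 0.00082). On the other side stood Hsd11b2, the enzyme that inactivates corticosterone and so shields the mineralocorticoid receptor. It had 7.71, 8.26, 7.35 and 7.96 at 24 h, against 6.19, 5.69, 5.80 and 5.66 at 3 h, and was 3.96-fold higher at 24 h (log2 1.99, SE 0.29, limma adjusted p = 0.000955). Nr3c2, the mineralocorticoid receptor itself, rose to 7.11 ± 0.072 at 24 h, against 6.29 ± 0.23 at 3 h (limma adjusted p = 0.00879). All 5 genes kept their call when any 1 array was left out, Atp1b1 and Wnk2 kept it without the 3 muscle-bearing lungs, and Nr3c2 lost it with the adipocyte covariate (log2 0.78, limma adjusted p = 0.0516).

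Macrophage and inflammatory genes showed no common direction. Of 13 macrophage genes measured, 1 rose and 2 fell, with a median of -0.29, and of 31 inflammatory genes 0 rose and 2 fell, with a median of 0.075. Cd163, the haemoglobin-haptoglobin scavenger receptor of macrophages, had 4.63, 3.75, 3.73 and 3.93 at 24 h, against 6.38, 6.40, 5.88 and 6.29 at 3 h. It was near the bottom of the scale in every 24 h lung and in Air lung, where the means were 3.74 ± 0.11 at 24 h and 4.22 ± 0.22 at 3 h, so no fold is given, and it fell after PH3 (log2 -2.23, SE 0.28, limma adjusted p = 0.000279). Csf1r, the growth factor receptor on which macrophages depend, was by contrast higher at 24 h, with 10.44, 10.77, 10.35 and 10.46, against 9.45, 9.55, 10.02 and 9.98 at 3 h (log2 0.76, limma adjusted p = 0.026). Its call was lost without any 1 of rats 87, 147, 148 and 155, at 0.66 to 0.77. Lpl, lipoprotein lipase, which fat cells also make, fell by 0.80 on the log2 scale (limma adjusted p = 0.0426), a call held in 2 of the 8 fits with 1 array left out (lost without rats 87, 147, 148, 152, 154 or 155, at -0.87 to -0.67).

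A decoy receptor and a secreted inhibitor were the called members of the cytokine list. Il1r2, a decoy receptor that takes up interleukin-1, had 5.68, 5.71, 4.95 and 5.79 at 24 h, against 8.65, 7.98, 5.97 and 6.70 at 3 h. The 3 h values were spread widely, with the muscle-bearing rats 147 and 148 highest, and the fall of 1.79 on the log2 scale (SE 0.43, limma adjusted p = 0.0447) was -0.89 and not called without those lungs and rat 155. That call was kept only without rat 152 or 154, and the values with 1 array left out ran from -2.24 to -1.35. Tnfaip6, a secreted hyaluronan-binding protein, had 3.78, 4.14, 3.83 and 4.23 at 24 h, against 5.85, 4.71, 4.58 and 5.26 at 3 h (log2 -1.10, limma adjusted p = 0.0162), and missed the threshold without rats 70, 147, 149 or 154, at -1.05 to -0.85. Its 24 h signals were near the low end of the scale, and its further probe set, lower still, gave -0.062. Fcnb, a lectin of the complement system made by myeloid cells, was 2.81-fold higher at 24 h (limma adjusted p = 0.0397), but the call held only with rat 149 left out among the 8 such fits, at 1.16 to 1.75. The chemokine Ccl2 had overlapping signals of 5.64, 6.19, 4.86 and 6.35 at 24 h and 5.76, 4.61, 5.13 and 5.43 at 3 h. Interferon-stimulated genes (23 measured) had 0 calls by limma and 4 at an unadjusted p under 0.05, where 13% of all genes passed. T and natural killer cell genes (20 measured) also had 0 calls and 7 at that unadjusted level, with 19 of 20 changes above 0, a median of 0.38 and list means of 6.93 to 7.60 at 24 h and 6.49 to 7.11 at 3 h.

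Lipid genes split by pathway. G0s2, which inhibits the triglyceride lipase of fat droplets, had the largest rise, at 11.35, 11.28, 11.12 and 11.48 at 24 h, against 8.49, 8.69, 9.77 and 9.01 at 3 h. The groups did not overlap, the Air lungs lay between 11.03 and 11.81, and the gene was 4.98-fold higher at 24 h (log2 2.32, SE 0.25, limma adjusted p = 6.83e-05; 1.86 without the muscle-bearing lungs and 2.30 with the adipocyte list mean as a covariate). Scd, the desaturase that makes oleic acid for surfactant and other lipids, had 11.06, 11.44, 11.08 and 10.75 at 24 h, against 8.85, 9.67, 9.55 and 10.05 at 3 h, and was 2.94-fold higher at 24 h (limma adjusted p = 0.0121). The call was lost without rat 87 (1.44) or rat 147 (1.33), and with the adipocyte covariate it was just outside the threshold (log2 1.57, limma adjusted p = 0.0516). Scd was the 1 gene called among 16 surfactant and type 2 cell genes, and the median of that list was -0.0048. All 17 cholesterol synthesis genes measured had a positive change, with a median of 0.60. Of these Cyp51, which removes a methyl group from lanosterol, was called, at 8.95, 9.23, 8.86 and 9.15 at 24 h, against 8.32, 8.0, 8.52 and 8.18 at 3 h (log2 0.79, SE 0.18, limma adjusted p = 0.033), and 11 of the 17 had an unadjusted p under 0.05. The call of Cyp51 held only without rat 149 or 152, at 0.71 to 0.88 over the 8 fits.

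Fatty acid oxidation genes ran the other way, with 22 of 25 changes negative, a median of -0.34 and 2 genes called. Acot1, which releases fatty acids from coenzyme A, had 3.32, 3.20, 3.77 and 3.54 at 24 h, against 5.51, 5.18, 5.62 and 4.24 at 3 h, and fell (log2 -1.68, SE 0.26, limma adjusted p = 0.00201), with 24 h signals too near the low end of the scale for a fold. Cpt1a, the gate for entry of fatty acids into mitochondria, fell to 8.91 ± 0.15 at 24 h, against 9.82 ± 0.20 at 3 h (SD, n = 4 each; limma adjusted p = 0.0065). Both calls were kept in all 8 fits with 1 array left out and with the adipocyte covariate (Acot1 -1.64, limma adjusted p = 0.0162, and Cpt1a -0.91, limma adjusted p = 0.0331). Both were lost without the muscle-bearing lungs (Acot1 -1.50, limma adjusted p = 0.236, and Cpt1a -0.82, limma adjusted p = 0.426). They were also lost without rats 70 and 87 (Acot1 -1.48, limma adjusted p = 0.0902, and Cpt1a -0.80, limma adjusted p = 0.156). The mean of the fatty acid oxidation list was 8.75 in the fat-bearing 24 h rat 70 and 7.61 to 7.86 in the other 24 h rats, against 8.40 to 8.72 in the 3 h rats. Rat 70 was thus above every 3 h rat, and the others were below every 3 h rat, the order in which the adipocyte mean also placed them. Adipocyte genes themselves, 11 measured, had 0 calls by limma, 5 at an unadjusted p under 0.05 and a median of -1.61. Their part in the change of the other lipid genes was not tested. Genes of the respiratory chain, the known target of phosphine, had a median of -0.039 over 20 measured, with 0 called by limma and 0 at an unadjusted p under 0.05.

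**Figure D3:**
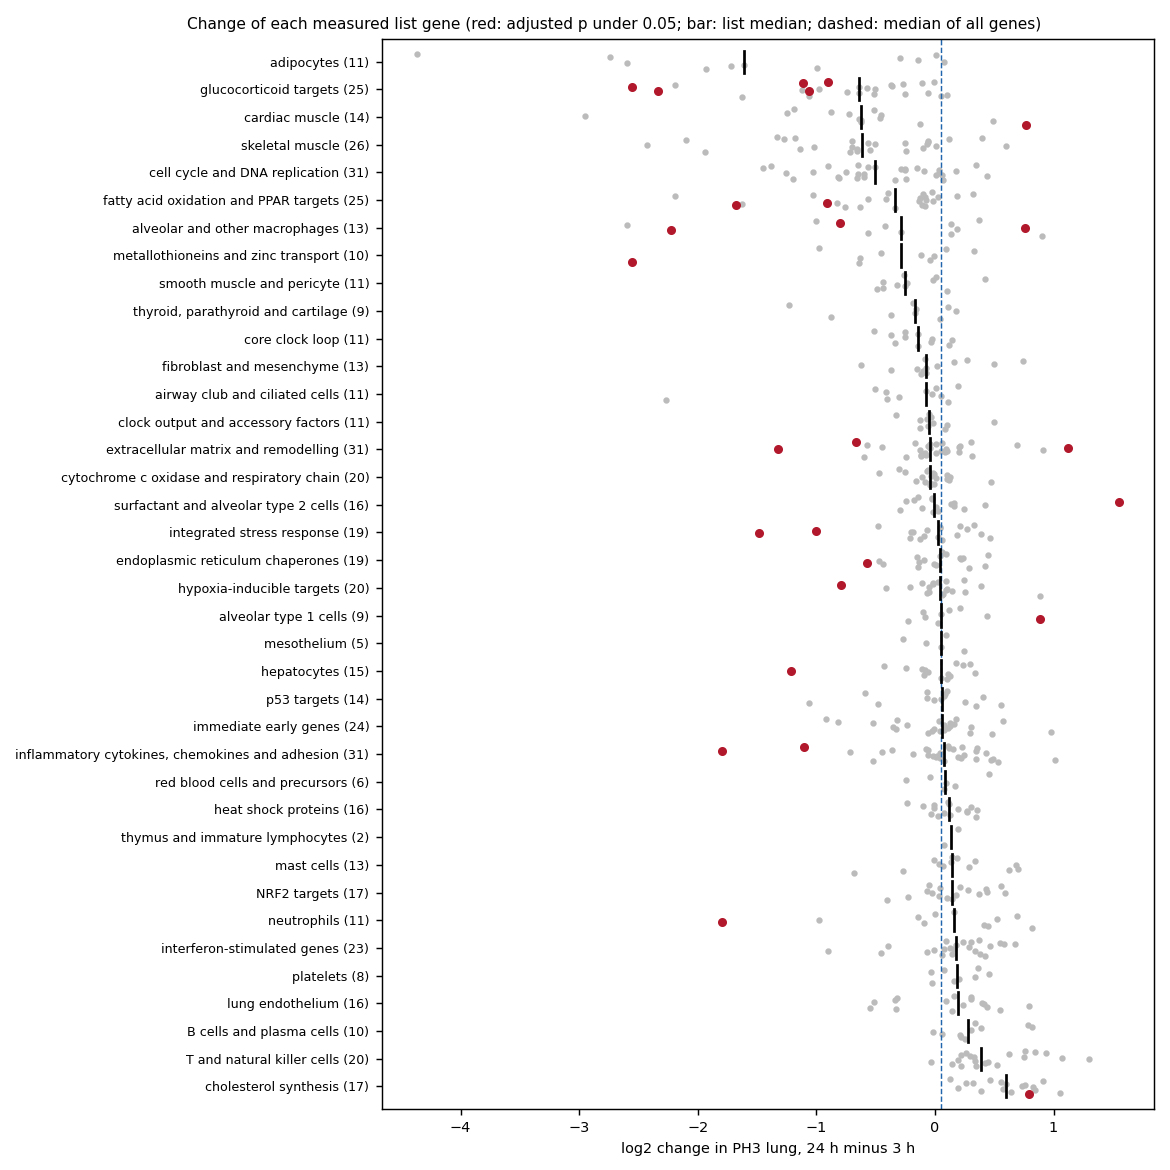
Log2 change in PH3 lung, 24 h minus 3 h, of each measured gene (points) of 38 lists, with the number measured in parentheses, called genes in red, the list median as a bar and the median of all genes as a dashed line. Adipocyte, glucocorticoid, cardiac and skeletal muscle lists have the lowest medians, and cholesterol synthesis and T and natural killer cell lists the highest.

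Stress response lists held 0 to 2 called genes each, to be read against the 1.27% of all genes that were called. Nupr1, a nuclear protein induced by amino acid and endoplasmic reticulum stress, had 8.59, 7.89, 8.16 and 8.41 at 24 h, against 9.41, 9.83, 9.77 and 9.96 at 3 h. It did not overlap between the groups, was 2.8-fold lower at 24 h (log2 -1.48, SE 0.21, limma adjusted p = 0.000918) and gave -1.65 without the muscle-bearing lungs. Psat1, an enzyme of serine synthesis, was the other called gene of the 19 of the integrated stress response (log2 -1.0, limma adjusted p = 0.022), a call lost without rat 87, 148, 149 or 154 at -1.01 to -0.84. The medians were 0.029 for that list and 0.042 for 19 endoplasmic reticulum chaperones, of which Edem1, which passes misfolded proteins to degradation, fell to 10.10 ± 0.13 at 24 h, against 10.67 ± 0.16 at 3 h (limma adjusted p = 0.00656). P4ha2, a collagen prolyl hydroxylase induced by low oxygen, was the 1 called gene of 20 hypoxia targets, at 8.61, 8.59, 8.33 and 8.64 at 24 h, against 9.65, 9.23, 9.25 and 9.19 at 3 h (log2 -0.79, limma adjusted p = 0.0121), and missed the threshold without rat 147 (-0.68, limma adjusted p = 0.0652). NRF2 targets (17 measured) and heat shock proteins (16 measured) had 0 calls by limma, with 3 and 1 genes at an unadjusted p under 0.05, a level that 13% of all genes passed, and medians of 0.15 and 0.12. Hmox1, haem oxygenase 1, had 7.91, 8.19, 8.10 and 8.21 at 24 h, against 7.84, 7.59, 7.65 and 7.59 at 3 h, values that did not overlap but were not called (log2 0.43, SE 0.18, limma adjusted p = 0.343).

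A few enzymes that handle foreign chemicals are given together here, a grouping made after their values were seen. Fmo2, the flavin monooxygenase of lung, had 9.55, 9.10, 9.43 and 9.36 at 24 h, against 10.71, 11.13, 10.80 and 10.96 at 3 h. It was 2.91-fold lower at 24 h without overlap (log2 -1.54, SE 0.26, limma adjusted p = 0.00375). Por, the reductase that feeds electrons to cytochromes P450, fell to 9.65 ± 0.17 at 24 h, against 10.67 ± 0.17 at 3 h (limma adjusted p = 0.00219), and Gsta1, a glutathione transferase, to 10.21 ± 0.061, against 10.87 ± 0.077 (limma adjusted p = 0.00814; SD, n = 4 each). Por and Gsta1 were picked for the text in the same way. Mtarc1, a mitochondrial reductase of N-hydroxylated compounds, had 6.94, 5.81, 5.88 and 6.08 at 24 h, against 8.79, 8.34, 8.10 and 7.86 at 3 h, with rat 70 the highest of the 24 h lungs (log2 -2.10, SE 0.28, limma adjusted p = 0.000521; -1.80 with the adipocyte covariate). Cyp2e1, a cytochrome P450 found in liver and lung, fell by 1.21 on the log2 scale (limma adjusted p = 0.0361), with a call kept only without rat 147 among the 8 fits with 1 array left out (values -1.37 to -1.03). It was the 1 called gene of 15 hepatocyte markers, and the list mean lay between 4.92 and 5.66 at 24 h and between 5.02 and 6.17 at 3 h.

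Matrix genes included changes both ways. Lox, which crosslinks collagen and elastin, had 9.62, 9.76, 9.51 and 9.92 at 24 h, against 11.59, 10.96, 10.85 and 10.70 at 3 h, and was 2.5-fold lower at 24 h (log2 -1.32, SE 0.22, limma adjusted p = 0.00316). Its relative Loxl1 moved the opposite way, with 11.60, 11.91, 11.27 and 11.85 at 24 h, against 10.88, 10.24, 10.66 and 10.39 at 3 h (log2 1.12, SE 0.20, limma adjusted p = 0.00656). Timp3, an inhibitor of matrix proteases, fell to 12.40 ± 0.15 at 24 h, against 13.07 ± 0.069 at 3 h (SD, n = 4 each; limma adjusted p = 0.00346). These were the 3 calls among 31 matrix genes, whose median was -0.043. Cemip, which breaks down hyaluronan, rose to 6.34 ± 0.19 at 24 h, against 4.83 ± 0.33 at 3 h (limma adjusted p = 0.00184). Adamtsl2, a secreted microfibril protein, was 2.65-fold lower at 24 h (limma adjusted p = 0.0421), but its call held only without rat 148 or 154, at -1.62 to -1.13 over the 8 fits. Igfbp3, a carrier of insulin-like growth factors chosen after its values were seen, fell to 8.54 ± 0.37 at 24 h, against 9.60 ± 0.32 at 3 h (limma adjusted p = 0.0108), and missed the threshold without rat 87 (-0.88) or rat 147 (-0.91).

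Cldn1 and Cldn11 are claudins, proteins of tight junctions. Cldn1 had 4.37, 3.90, 3.68 and 4.17 at 24 h, against 5.67, 5.13, 5.27 and 5.60 at 3 h, low signals that fell by 1.39 on the log2 scale (SE 0.23, limma adjusted p = 0.003). Its other 2 probe sets gave 0.14 and -0.33, and in Air lung the difference was -1.10 (SE 0.28). Cldn11 had 9.02, 8.91, 8.62 and 9.31 at 24 h, against 7.48, 7.05, 7.76 and 7.20 at 3 h, and was 3.02-fold higher at 24 h (log2 1.59, SE 0.25, limma adjusted p = 0.00184). Its further probe set, with a low mean of 3.59 over the lung arrays, gave 0.097 and was not called. Aqp5, the water channel of type 1 cells, was the 1 called gene of 9 type 1 markers, at 11.52, 11.82, 11.86 and 11.38 at 24 h, against 10.10, 10.84, 11.16 and 10.96 at 3 h (log2 0.88, limma adjusted p = 0.0276), and the call was lost without rat 87, 147, 148 or 149 at 0.66 to 0.91. Gja5, the connexin of arterial endothelium, rose to 9.68 ± 0.064 at 24 h, against 8.91 ± 0.27 at 3 h (SD, n = 4 each; limma adjusted p = 0.00232), and stood among 14 genes of the cardiac list as its 1 call, while 12 of that list's changes were negative. Plxnd1, a semaphorin receptor of endothelium chosen after its values were seen, rose to 8.59 ± 0.18 at 24 h, against 7.40 ± 0.35 at 3 h (limma adjusted p = 0.0017). The secreted airway protein Scgb1a1 and the surfactant protein Sftpc were not called, at -0.073 (SE 0.061) and -0.027 (SE 0.057), both on signals above 13 that are near the top of the array's range.

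Other large rises were in genes with no list in common. Tmem119, a membrane protein best known from bone and microglia, had 7.67, 7.76, 7.26 and 7.36 at 24 h, against 5.89, 5.20, 5.88 and 4.97 at 3 h, and was 4.06-fold higher at 24 h (log2 2.02, SE 0.28, limma adjusted p = 0.00082). Pola2, a subunit of the DNA polymerase that starts new strands, had 9.78, 10.03, 9.88 and 10.08 at 24 h, against 7.77, 8.01, 8.91 and 8.36 at 3 h (log2 1.68, SE 0.23, limma adjusted p = 0.000651). In contrast to Pola2, 23 of 31 cell cycle genes had a negative change, with a median of -0.51, 0 called by limma and 14 at an unadjusted p under 0.05 (13% of all genes). Dach1, a transcriptional cofactor, had 8.97, 8.93, 8.92 and 9.36 at 24 h, against 7.66, 7.48, 8.01 and 7.93 at 3 h (log2 1.27, SE 0.17, limma adjusted p = 0.000376). Each of these groups of arrays was fully separate. Pcp4l1, a small calmodulin-binding protein, rose by 1.67, Plekha6 by 1.46, the elongation factor Tcea3 by 1.44, and the synaptic scaffold proteins Rimbp2 and Dlgap1 by 1.43 and 1.41 on the log2 scale, with limma adjusted p between 0.00033 and 0.00524. These 5 and Tmem119, Pola2, Dach1, Cemip and Cldn11 were called in all 8 fits with 1 array left out. None of them was still called without the muscle-bearing lungs (limma adjusted p from 0.0507 for Tmem119 to 0.52 for Dlgap1). Cemip, Cldn11 and Tcea3 also lost the call without rats 70 and 87. Ooep, known from the oocyte, rose by 1.79 (limma adjusted p = 0.0133), a call lost without rat 87 (1.57), 147 (1.42) or 155 (1.61), and also without the muscle-bearing lungs (1.15).

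The remaining large falls included a neuropeptide and a kinase. Gal, the precursor of galanin, had 5.37, 5.01, 4.87 and 5.05 at 24 h, against 7.76, 6.74, 6.89 and 7.23 at 3 h, without overlap, and was 4.22-fold lower at 24 h (log2 -2.08, SE 0.26, limma adjusted p = 0.000279; -1.97 without the muscle-bearing lungs). Air lungs lay between 4.56 and 5.47, as did the 24 h PH3 lungs. Map3k6, a stress-activated kinase, had 7.12, 6.58, 6.63 and 6.42 at 24 h, against 8.86, 8.05, 7.92 and 7.63 at 3 h (log2 -1.43, SE 0.25, limma adjusted p = 0.00679). Trim54, a ubiquitin ligase of striated muscle, had 5.49, 4.72, 4.78 and 5.20 at 24 h, against 7.71, 7.04, 6.19 and 5.97 at 3 h, highest in the muscle-bearing 3 h rats 147 and 148. Its change of -1.68 (limma adjusted p = 0.0116) was -1.08 without the muscle-bearing lungs and -1.36 with the skeletal muscle mean as a covariate. The call was lost without the muscle-bearing lungs (limma adjusted p = 0.613), with the adipocyte covariate (log2 -1.33, limma adjusted p = 0.0775) and without rat 87 (-1.57, limma adjusted p = 0.056). The skeletal muscle list had 22 of 26 changes below 0 and a median of -0.61, with 0 called by limma and 3 at an unadjusted p under 0.05. Cdkn1a, a cell cycle inhibitor, was 9.10, 8.52, 8.25 and 8.60 at 24 h and 10.37, 9.95, 9.32 and 9.08 at 3 h, overlapping and not called (limma adjusted p = 0.17). Gdf15 and Tnfrsf12a, both induced by injury, were also not called, with changes of 0.38 (SE 0.25) and -0.20 (SE 0.32).

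In all, 15 of the 38 lists held a called gene. The other 23, with 327 distinct genes, had list medians between -1.61 (adipocytes) and 0.38 (T and natural killer cells), 0 calls by limma and 62 genes at an unadjusted p under 0.05, which 13% of all genes passed. They included immediate early genes (24 measured, 4 at the unadjusted level) and p53 targets (14 measured, 3 at that level). Of the called genes 64 had a further probe set. In 58 of these every further probe set had a change of the same sign, and in 6 (Cacna1d, Edem1, Dact3, Cldn1, Clic4 and Bmp6) at least 1 had the opposite sign. The same sign did not always mean a like size. Further probe sets gave 0.097 for Cldn11, 0.11 for Gja5, -0.062 for Tnfaip6 and -0.39 for Cpt1a, all on low signals and not called. Those of Lox (-1.20), Mtarc1 (-2.18) and Pcp4l1 (1.56) were called.

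The same interval in Air lung shares no array with the PH3 comparison. It asks what part of a change the hour of day could carry, if Air and PH3 rats were killed at the same hours. With 4 arrays at 24 h and 2 at 3 h, limma called 0 genes (0%), and 259 had an unadjusted p under 0.05, 1.93% of those tested. This count was 0 in every other setting tried but 1. When rat 150 was left out, the lone Air 3 h array was rat 144, the one with hepatocyte transcripts, and 14 genes were called, all lower at 24 h, among them the liver genes Ahsg, Apoa1, Fgb and Hpx. The 97 genes higher at 24 h in PH3 lung had a median Air change of 0.086, and 64 of them (66%) were above 0, against 43.2% of all genes. The 73 genes lower at 24 h in PH3 lung had a median Air change of -0.23, and 64 of them (87.7%) were below 0, against 56.8% of all genes. Their medians in PH3 lung were 0.93 and -1.0. For 3 genes, singled out after their values were seen, the Air difference was near the PH3 one. Cldn1 had -1.39 in PH3 and -1.10 in Air lung (SE 0.28), Cemip 1.51 and 1.03 (SE 0.29), and Scd 1.55 and 1.06 (SE 0.37). The Air differences had unadjusted p of 0.000847, 0.00176 and 0.00983 and did not pass adjustment.

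**Figure D4:**
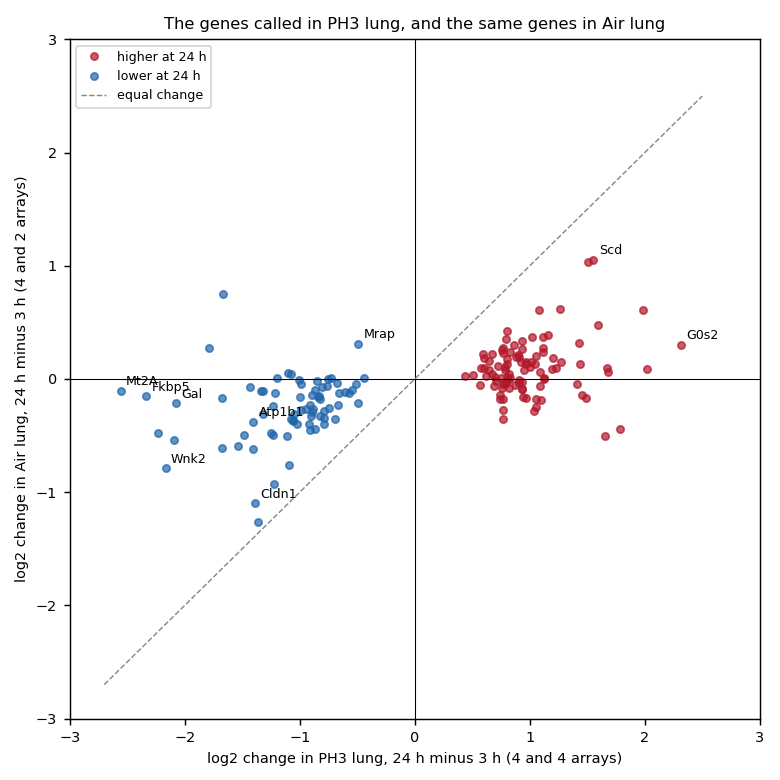
Log2 change, 24 h minus 3 h, of the 170 genes called in PH3 lung, with the PH3 change on the horizontal axis and the Air change on the vertical axis. Genes lower at 24 h in PH3 lung lie mostly just below 0 in Air lung (median -0.23), genes higher at 24 h lie near 0 (median 0.086), and Cldn1 and Scd are near the line of equal change.

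The test of the difference between the PH3 and the Air change called 0 genes in limma (0%), with 706 at an unadjusted p under 0.05 and a smallest adjusted p of 0.130 (Atp1b1). With rat 150 left out 5 genes were called (Ahsg, Cyp2c13, Fgb, Serpina3l and Pcp4l1), with the 14 arrays of these 4 groups alone 1 gene was called (Upk3a), and with array weights, a fit that stopped before it converged, 793. No gene is thus shown by this test to have changed by another amount in PH3 than in Air lung at the main settings. The 6 genes with the smallest p were Atp1b1 (difference -1.03, SE 0.19), G0s2 (2.01, SE 0.40), Fkbp5 (-2.18, SE 0.46), Mrap (-0.80, SE 0.17), Pcp4l1 (1.58, SE 0.34) and Plekha6 (1.59, SE 0.35), with limma adjusted p from 0.13 to 0.268. Mrap, an accessory protein of the corticotropin receptor, had low signals of 3.65, 3.37, 3.72 and 3.44 at 24 h, against 3.99, 4.24, 3.84 and 4.07 at 3 h, in PH3 lung, and 3.52, 3.73, 3.72 and 3.65 at 24 h, against 3.19 and 3.49 at 3 h, in Air lung. Its PH3 call (log2 -0.49, limma adjusted p = 0.0274) was lost without rats 87, 147, 148, 154 or 155, at -0.42 to -0.50.

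PH3 and Air lung were also set against each other at each time. These contrasts use the same PH3 arrays as the 24 h minus 3 h comparison, so their values are given side by side and are not separate evidence. At 24 h limma called 0 genes between PH3 and Air (0%), with 189 at an unadjusted p under 0.05, and at 3 h it called 38, 0.283% of those tested, 20 higher and 18 lower in PH3 lung. The 97 genes higher at 24 h than at 3 h in PH3 lung had a median PH3 minus Air difference of -0.041 at 24 h and -0.87 at 3 h. For the 73 lower genes these medians were 0.13 at 24 h and 0.86 at 3 h. Fkbp5 was 0.47 (SE 0.29) above Air at 24 h and 2.65 (SE 0.35) above Air at 3 h. Mt2A was 0.15 (SE 0.50) above Air at 24 h and 2.60 (SE 0.61) at 3 h. G0s2 differed from Air by -0.22 (SE 0.25) at 24 h and by -2.24 (SE 0.31) at 3 h, and Tmem119 by -0.22 (SE 0.28) and -2.16 (SE 0.35). Atp1b1 was 0.38 (SE 0.12) above Air (not called), against 1.41 (SE 0.15) at 3 h. The 24 h means of PH3 lung lay within the range of the 4 Air 24 h arrays for 88 of the 97 higher genes and 51 of the 73 lower ones, and for 12060 of all 13438 genes.

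The levels at 1 week were not simply those at 24 h. Fkbp5 was 8.30 ± 0.49 in PH3 lung (SD, n = 3) and 7.20 ± 0.54 in Air lung (SD, n = 4) at 1 week, against 7.24 ± 0.23 in PH3 lung at 24 h. Map3k6 was 7.41 ± 0.074 in PH3 and 6.39 ± 0.18 in Air lung, Tsc22d3 12.11 ± 0.12 and 11.33 ± 0.55, and Mt2A 8.22 ± 0.50 and 7.58 ± 0.63. All 4 genes thus had 1-week PH3 means above their 24 h PH3 means, by values that were not tested. G0s2, Hsd11b2 and Cd163 were 11.10 ± 0.31, 8.06 ± 0.35 and 4.42 ± 0.061 in PH3 lung and 11.48 ± 0.54, 8.31 ± 0.59 and 3.91 ± 0.81 in Air lung at 1 week.

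Clock genes were read because the hour at which the rats were killed is not given. The core clock is a loop in which Bmal1 with Clock or Npas2 switches on Per, Cry and Nr1d genes, whose products then turn the loop off, and Dbp is an output that the loop drives strongly. Of 22 clock genes measured, limma called 0 in PH3 lung, with 0 at an unadjusted p under 0.05 (13% of all genes) and list medians of -0.15 (core) and -0.053 (outputs), and 0 in Air lung, with 3 at the unadjusted level (1.93% of all genes). Dbp had 7.61, 8.37, 8.69 and 8.71 at 24 h, against 7.59, 8.51, 7.39 and 7.88 at 3 h, in PH3 lung, which overlap. In Air lung it had 6.08, 6.78, 6.28 and 5.96 at 24 h, against 7.61 and 8.18 at 3 h, which do not. The change was 0.50 (SE 0.61) in PH3 and -1.62 (SE 0.75) in Air lung, and the difference of 2.12 had an unadjusted p of 0.0406 and an adjusted p of 0.936 in limma. Nr1d1, the repressor REV-ERB alpha, had differences of -0.021 (SE 0.46) in PH3 and -1.65 (SE 0.57) in Air lung, 1.62 apart (limma adjusted p = 0.936). Per1, which glucocorticoids also induce, was 8.43 ± 0.57 at 24 h and 8.80 ± 0.36 at 3 h in PH3 lung (SD, n = 4 each), and 7.17 ± 0.78 at 24 h in Air lung (n = 4), with 7.16 and 6.88 on the 2 Air arrays at 3 h. Per2 and Bmal1 had differences of -0.14 and -0.15 in PH3 lung and -0.90 and 0.88 in Air lung, none of them called. The SE of these tests pools the spread within all lung groups, including Air lung at 1 week, where several clock genes varied widely. The SD of Dbp was 2.02 there, against 0.36 to 0.51 in the groups compared. That of Nr1d1 was 1.39, against 0.15 to 0.67. The wider SE makes a call less likely, so 0 calls do not show that the clock was unchanged. With only the arrays compared, Dbp and Nr1d1 were still not called in PH3 lung (limma adjusted p = 0.344 and 0.957).

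At 24 h several clock genes stood above Air in PH3 lung without being called (limma adjusted p near 1 for each). The SE of this contrast is pooled in the same way, so the lack of a call does not show equal levels. PH3 minus Air at 24 h was 2.07 (SE 0.61) for Dbp, 1.37 (SE 0.46) for Nr1d1, 1.28 (SE 0.42) for Per2, 1.14 (SE 0.36) for Nr1d2 and 0.66 (SE 0.21) for Tef, with unadjusted p between 0.00305 and 0.00803. At 3 h the same differences were -0.053, -0.26, 0.52, 0.54 and 0.089. The genes given had the smallest p of the clock genes at 24 h. In that contrast 1.41% of all genes had an unadjusted p under 0.05. Bmal1, Nfil3, Npas2 and Cry1 stood below Air at 24 h, by -0.69, -0.45, -0.38 and -0.38. The other clock genes measured stood above Air. The mean of the core clock list, which averages genes above and below Air, lay between 7.33 and 7.58 in PH3 lung at 24 h. In Air lung at 24 h it lay between 6.90 and 7.07, without overlap. This was not particular to the clock. The heat shock list did not overlap either, at 9.70 to 9.82 in PH3 and 9.59 to 9.67 in Air lung.

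Kidneys of the same study, with 4 arrays in each group, were read for the same genes. They are partly from the same animals: 6 rats gave both a lung and a kidney array of these groups (70, 149 and 152 after PH3, and 83, 145 and 150 in Air). In kidney 24 h minus 3 h, 35 of 13438 genes were called after PH3, 0.26%, and 1 of the 22 clock genes, Cry1, at -1.18 (limma adjusted p = 0.0437). In Air kidney 0 genes were called by limma (0%), with 304 at an unadjusted p under 0.05, and the smallest adjusted p of a clock gene was 0.110 (Per3, -1.71). Dbp differed by -0.70 in PH3 and -1.72 in Air kidney, and Nr1d1 by -0.99 and -1.32, none of them called. In lung, where it was not called, Cry1 differed by -0.34 (SE 0.20) after PH3 and 0.35 (SE 0.24) in Air. In promoters from 250 bases before the gene start to 50 after it (RefSeq, GRCr8, both strands), the E-box letters CACGTG were present for 5 of the 18 clock genes with a sequence (27.8%) and for 7.08% of 27457 genes. The D-box letters TTATGTAA or TTACGTAA were present for 1 of 18 (5.56%) and 1.09% of all, the ROR core TAGGTCA for 1 of 18 (5.56%) and 2.83%, and TGACGTCA, the cyclic AMP response element, for 0 of 18 and 2% of all.

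**Figure D5:**
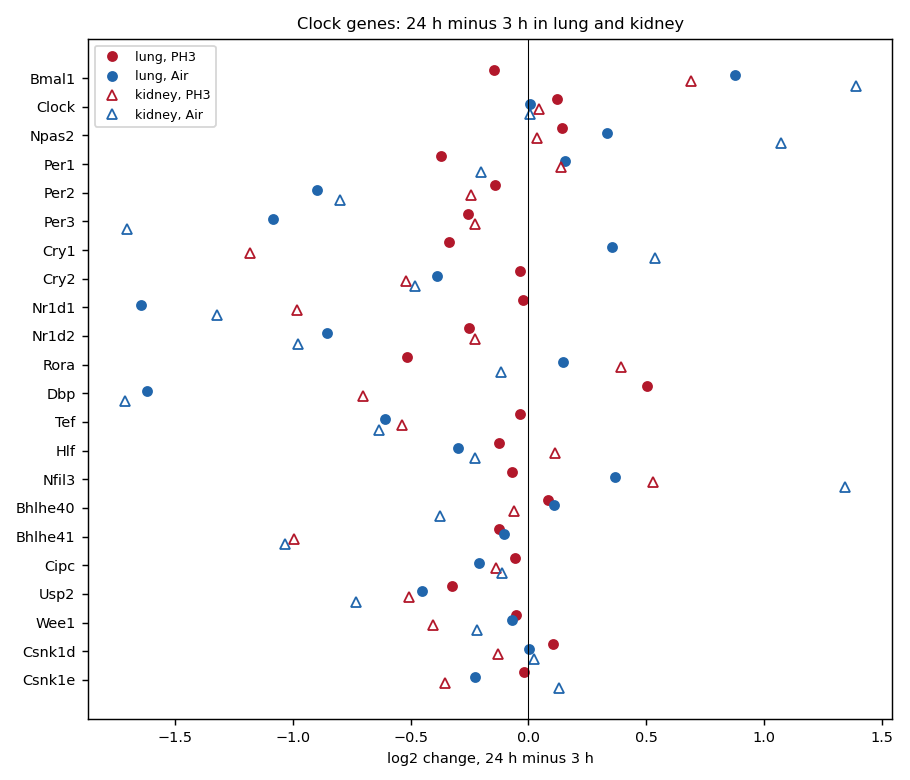
Log2 change, 24 h minus 3 h, of 22 clock genes in lung (filled circles) and kidney (open triangles), after PH3 (red) and in Air (blue). Dbp and Nr1d1 are well below 0 in Air lung (-1.62 and -1.65) and near or above 0 in PH3 lung (-0.021 for Nr1d1 and 0.50 for Dbp), and the lung changes after PH3 stay within -0.52 and 0.50.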

How the data were processed

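Per the labels, total RNA of powdered frozen lung was amplified and biotin-labelled by a 3' method and hybridised to rat expression arrays. The deposited values are log2 signals that the authors made by RMA. Per the submitters' processing notes, the tools were Affymetrix Expression Console (RMA) and Partek; no version is given there. There were 31139 probe sets, of which 19068 had 1 gene symbol, 573 several and 11498 none in the platform annotation, and 18989 matched the RefSeq gene list of GRCr8. The probe set with the highest mean over lung arrays stood for its gene (13438 genes). A group-means model over 21 lung arrays in 6 groups was fitted with limma 3.58.1 (R 4.3.3), with empirical Bayes and a trend. Two-sided p-values were adjusted by Benjamini-Hochberg over all 19068 probe sets. Kidney was fitted in the same way. On simulated data the fit recovered changed genes and was checked for false calls. Those data had independent noise of equal spread in every group. They do not bear on transcripts of neighbouring tissues or on spreads that differ between groups. Precision is set by how many rats each group had. The p-values set a difference of group means against the spread between rats within groups, which for lung was pooled over all 21 arrays.

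The members, the 38 gene lists and the tests were chosen with earlier results of these data known. Named genes were the 15 largest rises and 15 largest falls among called genes whose arrays did not overlap, all clock genes, up to 6 called genes of each list and direction, the 6 smallest p of the difference between exposures, and a panel of 11 genes. Other genes, such as the members of a small count, were named after their values were seen. No array was left out of the main fit. Figures were drawn with Python and matplotlib.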

Additional observations from a re-analysis of the deposited data

Results flagged for a closer look

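Among the 86 named genes, each in the 4 arrays of either time, 8 of 172 sets of 4 arrays had 1 array far from the others, measured as its gap to the nearest array over the range of the group, above Dixon's critical value for 4 values. Chance alone flags about 1 set in 20. At 24 h, Dach1 was high in rat 155 (9.36, others 8.92 to 8.97, ratio 0.898) and Mt2A was high in rat 70 (7.85, others 6.87 to 7.0, ratio 0.866). Il1r2 (4.95, others 5.68 to 5.79, ratio 0.859) and P4ha2 (8.33, others 8.59 to 8.64, ratio 0.836) were low in rat 149 at 24 h. At 3 h, rat 147 was high for Fkbp5 (10.37, others 9.23 to 9.41, ratio 0.841) and P4ha2 (9.65, others 9.19 to 9.25, ratio 0.853) and low for Tef (8.17, others 8.60 to 8.64, ratio 0.909). Cry1 was low in rat 154 at 3 h (7.61, others 8.03 to 8.10, ratio 0.863). Rat 147 was also the 3 h lung with the highest cardiac and skeletal muscle means, and the part of that in these 3 values was not tested.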

How the results depend on the processing

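No paired analysis was possible because no rat gave a lung array at both times. The 54 named genes that were called kept their direction in all 1183 values of the settings run, and the 170 called genes in the 3 settings in which all were followed (without rats 147, 148 and 155 and with either covariate). This is no separate evidence of direction. The settings share arrays, and for the 167 called genes without overlap, leaving out arrays could not reverse the sign. Genes called higher and lower at 24 h in PH3 lung (97 and 73) came to 199 and 155 with only the arrays compared, 890 and 417 with array weights (a fit that stopped before converging), 44 and 45 with the skeletal muscle mean as a covariate, 1 and 7 without rats 147, 148 and 155, 14 and 15 without rats 70 and 87, and, in 2 settings added after the data had been seen, 34 and 31 with the adipocyte mean as a covariate and 0 and 6 without rats 70, 147, 148 and 155. With 1 array left out they ran from 27 to 116 and from 34 to 72, and leaving out rat 87, 147, 148, 154 or 155 moved a count by over 1.5 times. Centring each array on its median gave 76 and 93, which turns the majority from higher to lower genes. One probe set per gene, all probe sets, removal of the dimmest 33%, quantile normalization, no trend and robust fitting kept both counts within 1.5 times. The Air comparison had 0 calls, and 14 without rat 150. The difference between exposures had 0 calls, 1 with only the arrays compared, 793 with array weights and 5 without rat 150, and the range with 1 array left out was 0 to 5. The causes were not tested, but settings that leave out arrays also have fewer samples. Of the named genes, Gal, Nupr1 and Atp1b1 were called under all 22 alternatives. Cd163, Acot1, Mt1, Mrap, Tnfaip6 and Cldn1 had 24 h signals near the low end of the signal range.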
